A study of Homo sapiens with 6 samples.

Results

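The comparison set V2084D cells with a hairpin against STUB1 beside V2084D cells without one, in Huh7, an established human hepatocellular carcinoma line. It used 4 of the 6 ATAC-seq libraries of the series, 2 of V2084D (no hairpin) and 2 of V2084D shSTUB1. All libraries came from cells in which ARID1A had been knocked out, and all carried a lentiviral, stably expressed, Flag-tagged copy of ARID1A. In both groups compared here that copy had the missense change V2084D, and in the 2 WT libraries, used only for description, it was wild type. The titles name no control hairpin in the V2084D group, so lowering STUB1 and carrying a hairpin cannot be told apart. The labels do not say whether each line was a clone or a pool, and no library measured how much ARID1A or STUB1 the cells held. The labels do not tie replicates to separate cultures, and a p-value over them reflects no more than the spread of these libraries, which may be technical.

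The members were chosen by presence of peaks. Peaks of the 4 lists on chromosomes 1 to 22 and X were joined wherever they shared 1 bp or more, which gave 27971 regions, beside 28879 regions from all 6 lists. A region was called V2084D-only when both V2084D libraries and neither shSTUB1 library had a peak in it, and shSTUB1-only in the opposite case. A peak is an interval in which the authors' peak caller found more reads than in its surroundings, and it marks DNA that the Tn5 transposase could reach.

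STUB1, also called CHIP, is a ubiquitin ligase that docks on the chaperones HSP70 and HSP90 and marks the proteins they hold for degradation by the proteasome. ARID1A is a DNA-binding subunit of the BAF form of SWI/SNF, a complex that uses ATP to slide and evict nucleosomes and so opens enhancers and promoters. In liver cells, such open elements are where hepatocyte factors bind, and ARID1A is often mutated in liver cancer.

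Of 27971 regions, 350 held peaks in V2084D alone and 378 in shSTUB1 alone, each time in both replicates. V2084D-only regions were 1.25% of all regions and shSTUB1-only regions 1.35%, so the counts in each direction were close. With reads scaled to the lowest depth they were 319 and 469. A peak in all 4 libraries was far more frequent, with 5842 regions. V2084D replicate 2 alone held 7629 regions, more than any other combination of libraries. The V2084D-only regions and shSTUB1-only regions were among the smaller classes, beside 3213 regions found in shSTUB1 replicate 1 alone and 1393 in shSTUB1 replicate 2 alone. With a single list standing for a group all but 1 of these counts moved by over 1.5 times, the exception being the 436 shSTUB1-only regions without V2084D replicate 1. V2084D-only and shSTUB1-only regions numbered 8045 and 436 without V2084D replicate 1, and 1001 and 3671 without V2084D replicate 2. They numbered 1211 and 1879 without shSTUB1 replicate 1, and 622 and 3656 without shSTUB1 replicate 2.

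**Figure D1:**
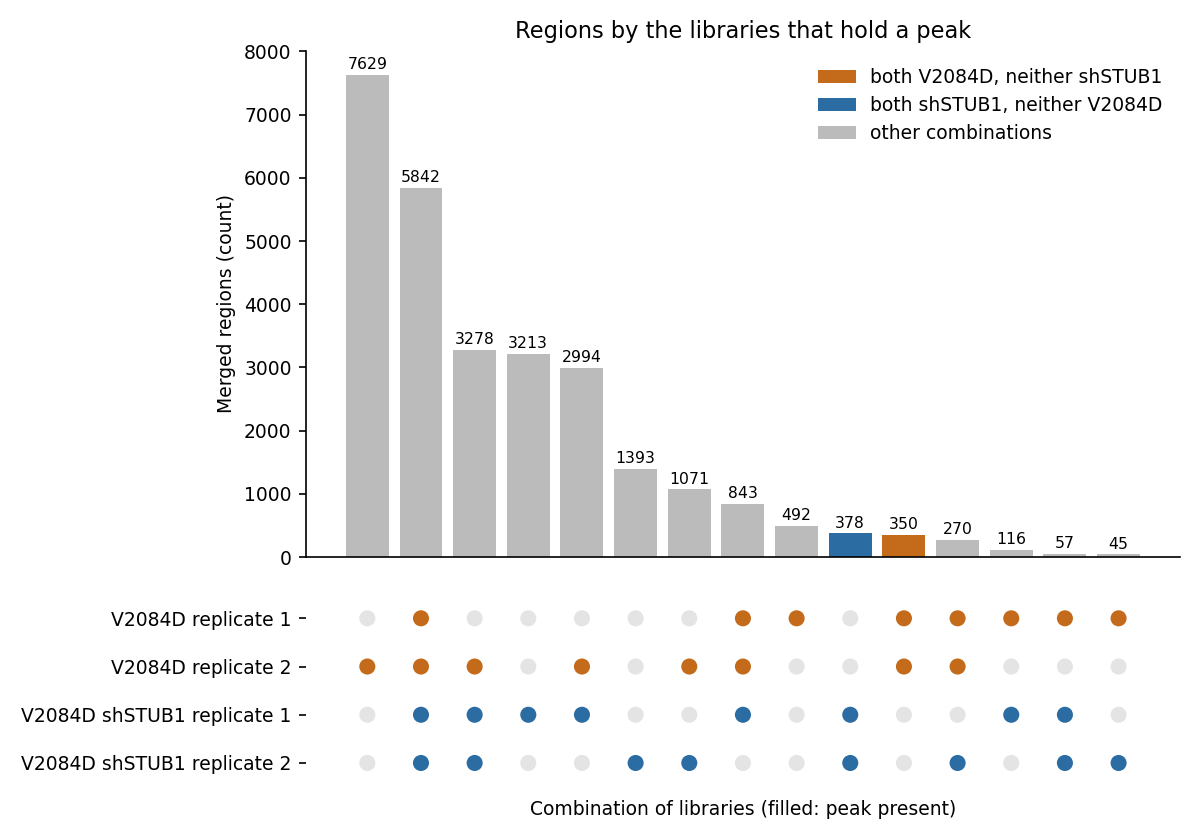
Number of merged regions (vertical axis, count) for each combination of the 4 libraries that held a peak, with filled dots below marking those libraries. The 350 V2084D-only regions (orange) and 378 shSTUB1-only regions (blue) are small beside the 5842 regions shared by all 4 libraries and the 7629 found in V2084D replicate 2 alone.

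The lists differed more within the V2084D group than between groups. V2084D replicate 1 held 8428 peaks and replicate 2 held 22978, while the shSTUB1 libraries held 17588 and 13196. The shSTUB1 values lay inside the V2084D range, and the mean was 15703 ± 10288 peaks (SD, n = 2) in V2084D and 15392 ± 3106 (SD, n = 2) in shSTUB1. An exact permutation test, two-sided, gave p = 1, and 2 against 2 libraries cannot give a p under 0.33. Relative to the lowest library of the series, the depth worked out from each summit's deposited fold and −log10 p was 1.17 and 1.70 in V2084D and 1.49 and 1.23 in shSTUB1. The longest list was therefore also the deepest, and the shortest of the 4 the least deep. Summits rested on a median of 9 and 12 reads in V2084D and of 10 and 9 in shSTUB1.

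**Figure D2:**
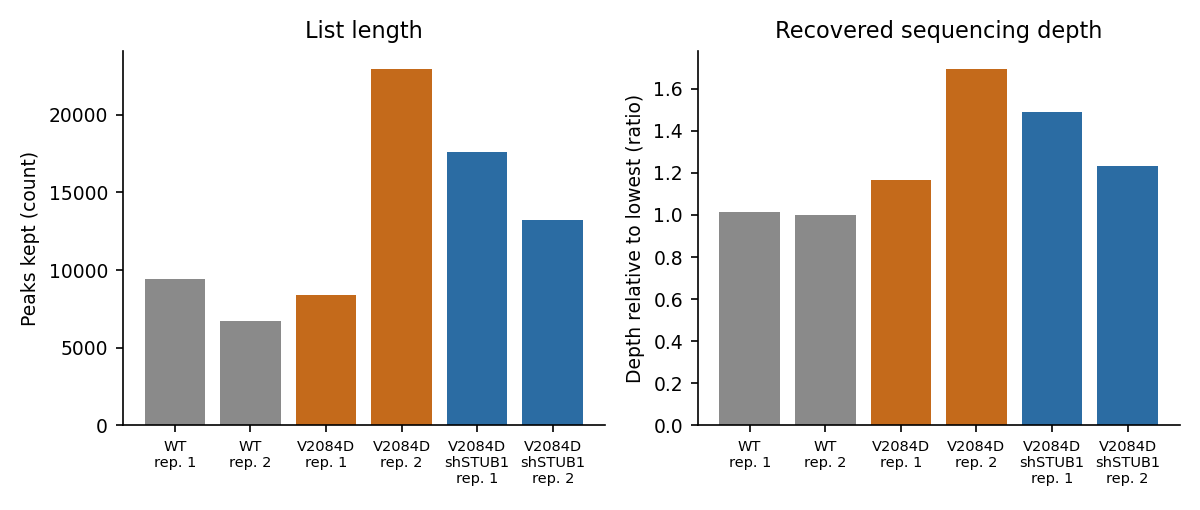
Peaks kept per library (left, count) and relative sequencing depth (right, ratio to the lowest library) for the 6 libraries, 1 bar each. V2084D replicate 2 has the longest list (22978 peaks) and the greatest depth (1.70), V2084D replicate 1 is close to the WT libraries, and both shSTUB1 libraries lie between the 2 V2084D libraries.

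List overlap followed list length. Of the regions of V2084D replicate 1, 91.1% were present in V2084D replicate 2, 85.6% in shSTUB1 replicate 1 and 77.5% in shSTUB1 replicate 2. Of the longer V2084D replicate 2 list, 32.8% were present in its own replicate, 58.2% in shSTUB1 replicate 1 and 47.0% in shSTUB1 replicate 2. Each share is of the named list, and the lists have unequal lengths, so these shares do not rank the libraries by likeness.

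The libraries held few peaks at genes that define liver cells. Of 11 hepatocyte markers, 10 had no peak within 1000 bp of their start in any of the 6 libraries, among them ALB and AFP, which encode albumin and alpha-fetoprotein, and the transcription factor genes HNF4A and FOXA2. The exception was APOA1, the main protein of high-density lipoprotein, with a peak in WT replicate 1, V2084D replicate 2 and shSTUB1 replicate 1. Extending the search to the whole gene added a peak of HNF4A in V2084D replicate 2 and left 9 of the 11 markers with no peak in any library. Markers of other cell types were also mostly without a start peak, with 4 of 5 leukocyte, 3 of 4 endothelial, 3 of 4 fibroblast and stellate, 2 of 4 neuronal and 2 of 3 cholangiocyte markers at none. COL1A1, a collagen gene of the fibroblast list, had a start peak in all 6 libraries, and KDR, of the endothelial list, in 5. Over the whole gene, 4 leukocyte, 1 endothelial, 3 fibroblast and stellate, 2 neuronal and 2 cholangiocyte markers had no peak in any library. In that search the endothelial markers PECAM1 and VWF had a peak in 1 library each, and the neuronal marker MAP2 in all 6. In wider liver lists, 8 of 21 transcription factor genes had a start peak in at least 1 of the 4 compared libraries. The same held for 3 of 25 secreted protein genes and 7 of 25 metabolism genes. Of these, 2, 0 and 1 had a start peak in all 4. By start peaks, the marker sets thus neither show the hepatocyte label nor point to another listed cell type. Some liver genes outside the 11 markers did have peaks.

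Neither manipulated gene gave a reading of the manipulation. STUB1 (chromosome 16, 680410 to 682801) had no peak in the gene or within 1000 bp of it in any of the 6 libraries. ARID1A (chromosome 1, 26696015 to 26782104) had a start peak in shSTUB1 replicate 2 and in no other library. In the whole gene and within 1000 bp of it, WT replicate 1, WT replicate 2 and shSTUB1 replicate 2 had 1 peak each, and the other 3 libraries had none. A peak list does not measure RNA or protein, so neither gene checks the knockdown or the knockout here.

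V2084D-only regions lay more often at gene starts, and shSTUB1-only regions more often elsewhere. Of the 350 V2084D-only regions, 164 touched the window of 1000 bp around the start of a coding gene (46.9%, exact 95% binomial interval 41.5% to 52.2%). Of the 378 shSTUB1-only regions, 114 did (30.2%, exact interval 25.6% to 35.1%). Over all regions the share was 45.7%, and among regions with a peak in all 4 libraries it was 77.8%. Inside genes but away from starts lay 75 V2084D-only regions (21.4%) and 123 shSTUB1-only regions (32.5%), and between genes lay 111 (31.7%) and 141 (37.3%). The intervals cover counting error only, and regions are not replicates. The order of the 2 gene-start shares rested on the V2084D libraries. Without V2084D replicate 2 it turned round (41.5% for V2084D-only against 57.8% for shSTUB1-only regions), and without V2084D replicate 1 the shares were 30.2% and 30.5%.

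The called regions were weak peaks. The median summit had 6 reads in V2084D replicate 1 and 9 in replicate 2 for V2084D-only regions. In shSTUB1-only regions it had 7 reads in replicate 1 and 6 in replicate 2. Regions with a peak in all 4 libraries had 9, 18, 14 and 11 reads in the order V2084D replicates 1 and 2, then shSTUB1 replicates 1 and 2. Over all regions the medians were 8, 10, 10 and 9 reads in the same order, so the called regions lay less far below these. The median widths of V2084D-only and shSTUB1-only regions were 415.5 bp and 379 bp. Beside them stood 832 bp for regions in all 4 libraries and 405 bp over all regions. Scaled by relative depth, V2084D-only regions would have had a median of 7.99 and 6.61 reads in the 2 shSTUB1 libraries, where a peak needed about 5, and 346 of 350 (98.9%) would have passed in both. For shSTUB1-only regions the same scaling gave 5.97 and 8.68 reads in the 2 V2084D libraries, and 363 of 378 (96.0%) would have passed in both. These scaled values start from regions picked for having a peak, so they run high.

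Since a called region joins overlapping peaks, the rule itself brings the replicates' summits close, and their gap is given as a description. The gap between the replicates' summits had a median of 81.5 bp in V2084D-only regions and 74.5 bp in shSTUB1-only regions. It was at most 100 bp in 188 V2084D-only regions (53.7%) and in 231 shSTUB1-only regions (61.1%).

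The WT libraries, which the rule did not use, held a peak in a minority of both classes. At least 1 WT library had a peak in 71 of 350 V2084D-only regions (20.3%, exact interval 16.2% to 24.9%). The same held for 99 of 378 shSTUB1-only regions (26.2%, exact interval 21.8% to 30.9%). Over all regions the share was 35.3%, and for regions in all 4 libraries 86.7%. At gene starts the 2 classes were nearly equal, at 26.8% and 27.2%, beside 51.4% of all regions at gene starts. Away from gene starts, 27 of 186 V2084D-only regions (14.5%, exact interval 9.79% to 20.4%) and 68 of 264 shSTUB1-only regions (25.8%, exact interval 20.6% to 31.5%) had a WT peak. WT replicate 1 carried that difference, with 8.6% and 20.1%, while WT replicate 2 had 8.06% and 9.85%, a difference within the counting intervals. Over all regions away from starts these shares were 16.8% in WT replicate 1 and 12% in WT replicate 2.

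**Figure D3:**
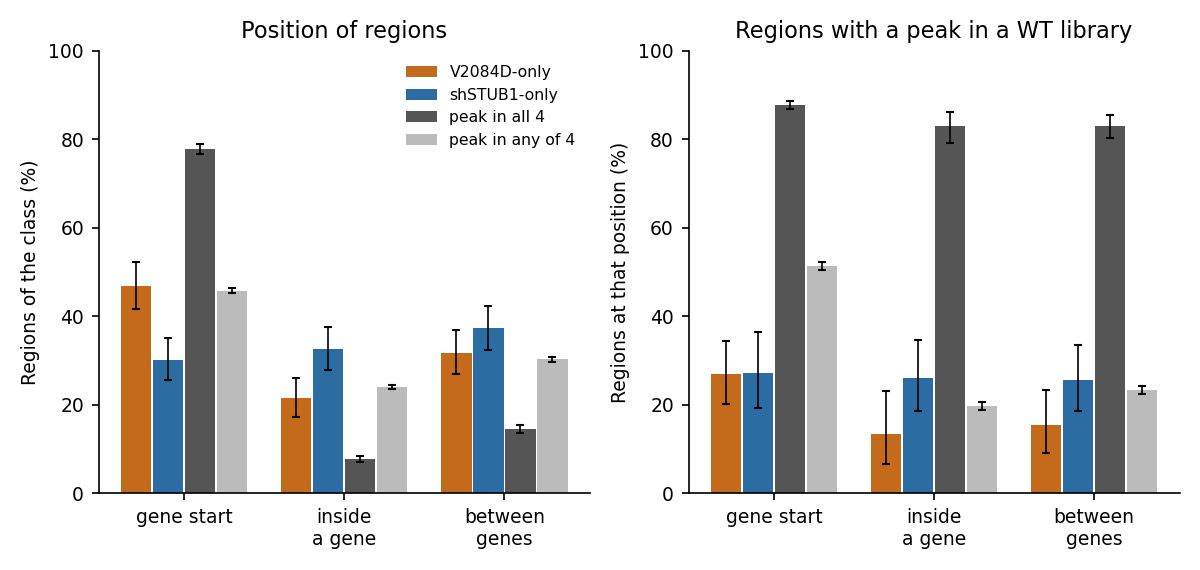
Left, share of regions (%) at a gene start, inside a gene or between genes, for 4 classes of regions. Right, share of the regions at each position (%) with a peak in at least 1 WT library. Bars are shares and error bars exact 95% binomial intervals, which cover counting error only. V2084D-only regions lie at gene starts in 46.9% and shSTUB1-only regions in 30.2%, and both classes have a WT peak far less often than regions with a peak in all 4 libraries.

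At the level of genes the lists as deposited gave unequal counts in the 2 directions. Of 19974 protein-coding genes, 11748 had a peak within 1000 bp of a start in at least 1 of the 4 libraries and 5428 in all 4. By the same rule 136 genes were V2084D-only, 1.16% of the 11748, and 71 genes were shSTUB1-only, or 0.604%. With reads scaled to the lowest depth the counts were nearly equal, at 138 and 131 genes. In 113 of the 136 and 54 of the 71 genes the peaks of the 2 libraries overlapped, and elsewhere they lay at different places near the same gene. No WT peak was found at 99 of the 136 V2084D-only genes and at 57 of the 71 shSTUB1-only genes. The WT lists were short, with 9421 and 6743 peaks, and no share over all genes stands beside these counts. They are therefore a description and do not set the called genes apart. Without V2084D replicate 2 the order turned round, with 185 V2084D-only and 2205 shSTUB1-only genes, as it did without shSTUB1 replicate 2, with 276 and 387. Without V2084D replicate 1 there were 1261 and 87 genes, and without shSTUB1 replicate 1 there were 693 and 168.

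KDELR1 led the genes with a start peak in V2084D only. It encodes a receptor that returns escaped chaperones from the Golgi to the endoplasmic reticulum. Its peak in V2084D replicate 1 had 11 reads and a fold over background of 6.98, and in replicate 2 had 21 reads and a fold of 7.28, with no peak in either shSTUB1 or WT library. The fold is the authors' value for each peak and is set side by side only, since it was not tested across lists. The region, chr19:48391282-48391772, covered part of the promoter and was also called with stricter, equally long or depth-scaled lists. Beside it in rank stood TRIM33, an E3 ubiquitin ligase of the nucleus that acts in TGF-beta signalling, with 11 reads and a fold of 6.74 in replicate 1 and 15 reads and a fold of 6.20 in replicate 2. It had no peak in either shSTUB1 library and a peak in 1 WT library.

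Among the genes with a start peak in shSTUB1 only, PSENEN and U2AF1L4 ranked first. Their starts lie close together on chromosome 19, and they encode a subunit of gamma-secretase and a relative of a splicing factor. Their peaks had 23 reads and a fold of 5.69 in shSTUB1 replicate 1 and 20 reads and a fold of 6.03 in replicate 2, but did not overlap each other. LONP2, a protease of peroxisomes, and the neighbouring transporter gene ABCC11 shared a peak with 11 reads and a fold of 7.79 in replicate 1 and 7 reads and a fold of 5.56 in replicate 2. That peak was also present in 1 WT library. SLC12A4, a potassium-chloride cotransporter, had 8 reads and a fold of 5.29 in replicate 1 and 9 reads and a fold of 7.35 in replicate 2, with no WT peak. None of these 5 genes had a peak in either V2084D library.

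The promoters below belong to leading genes and are the first 2 of each direction whose promoter window, as RefSeq (GRCh38.p14) lists it, was overlapped by a peak of both libraries, a choice made after the values were seen. The overlap may be partial: both TRIM33 summits lay outside the window, 332 and 328 bp from the start, and the SLC12A4 peak of replicate 1 only touched its edge. Each runs 5′ to 3′ on the gene's strand from 250 bases before to 50 bases after the start. Capitals mark matches to the motifs searched, except GGGCGG, which is too frequent to mark. KDELR1 (chr19:48391502-48391801, minus strand) and TRIM33 (chr1:114511154-114511453, minus strand) had a peak in V2084D only, and LONP2 (chr16:48244050-48244349, plus strand) and SLC12A4 (chr16:67968645-67968944, minus strand) in shSTUB1 only.
KDELR1: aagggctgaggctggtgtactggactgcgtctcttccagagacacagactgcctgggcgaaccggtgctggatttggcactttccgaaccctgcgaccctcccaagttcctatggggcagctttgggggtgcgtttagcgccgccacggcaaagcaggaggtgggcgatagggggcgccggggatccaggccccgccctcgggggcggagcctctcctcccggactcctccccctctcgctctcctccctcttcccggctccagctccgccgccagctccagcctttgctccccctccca
TRIM33: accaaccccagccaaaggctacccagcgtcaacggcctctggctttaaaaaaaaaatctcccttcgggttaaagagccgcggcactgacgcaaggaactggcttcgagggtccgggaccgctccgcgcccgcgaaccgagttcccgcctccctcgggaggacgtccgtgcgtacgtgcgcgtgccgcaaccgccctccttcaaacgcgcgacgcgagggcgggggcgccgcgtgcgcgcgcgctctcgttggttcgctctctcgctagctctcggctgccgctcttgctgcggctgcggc
LONP2: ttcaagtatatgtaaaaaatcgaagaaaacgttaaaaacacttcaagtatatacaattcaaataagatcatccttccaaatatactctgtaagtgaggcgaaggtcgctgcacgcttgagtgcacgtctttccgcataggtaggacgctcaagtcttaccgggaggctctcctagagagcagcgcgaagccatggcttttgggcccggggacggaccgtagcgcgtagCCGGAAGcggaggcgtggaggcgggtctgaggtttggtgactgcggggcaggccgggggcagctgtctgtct
SLC12A4: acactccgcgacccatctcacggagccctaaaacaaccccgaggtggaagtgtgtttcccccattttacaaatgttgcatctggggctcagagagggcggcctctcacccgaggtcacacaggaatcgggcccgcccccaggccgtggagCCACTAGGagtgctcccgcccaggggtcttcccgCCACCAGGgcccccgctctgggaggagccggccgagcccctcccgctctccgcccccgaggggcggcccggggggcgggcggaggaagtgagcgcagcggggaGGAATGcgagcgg
KDELR1 and TRIM33 hold GGGCGG on either strand 2 times each and no other motif searched. LONP2 holds the ETS letters CCGGAAG, and SLC12A4 holds CCACNAGG 2 times, GGAATG and 7 matches to GGGCGG. A match is a description of letters and not a measured binding site.

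Further leading V2084D-only genes are given with their reads in V2084D replicates 1 and 2. MCFD2, a cargo receptor for clotting factors, shared a peak with TTC7A that had 10 reads and a fold of 5.45 in replicate 1 and 17 reads and a fold of 7.20 in replicate 2, with a peak in 1 WT library. COPB1, a subunit of the COPI coat of Golgi vesicles, had 7 and 11 reads. CIAPIN1, which acts in iron-sulfur cluster assembly, and COQ9, which acts in coenzyme Q synthesis, shared a peak with 6 and 11 reads, and TMEM126A, a mitochondrial membrane protein, had 8 and 12. DCTN3, a dynactin subunit of the dynein motor, had 7 and 11 reads, with the strongest peak of each replicate at a different place near the start. PER3, a gene of the circadian clock, had 6 and 10 reads and MINDY3, a deubiquitinase, 9 and 13. In 17 of these leading 20 V2084D-only genes the deeper replicate 2 had the higher read count.

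RPS2, a ribosomal protein of the small subunit, had a peak with 16 reads in V2084D replicate 1 and 19 in replicate 2, read within 1000 bp of either gene end because no start is listed for it, as was the case for REEP4, STYK1 and TEX15 below. RPL27A, of the large subunit, shared a peak with TRIM66 that had 7 and 24 reads and was present in both WT libraries. SPOCK3, a secreted proteoglycan, had 8 and 12 reads, SLC37A1, a sugar-phosphate transporter, 9 and 9, and STYK1, a kinase-like receptor, 8 and 9. NRTN, the growth factor neurturin, had 8 and 17 reads and a peak in both WT libraries. REEP4, which shapes the endoplasmic reticulum, had 15 and 14 reads and also a peak in both WT libraries. TEX15, a germ cell gene, had 9 and 6 reads and no WT peak. The WT libraries thus split the leading genes: REEP4, NRTN, RPL27A and TRIM66 had a peak in both WT libraries, and 12 of the leading 20 had none.

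Further leading shSTUB1-only genes are given with their reads in shSTUB1 replicates 1 and 2. DNAJC8, a J-domain protein that works with HSP70 and is part of the spliceosome, had 14 reads in shSTUB1 replicate 1 and 12 in replicate 2, at places that did not overlap. PAK5, a kinase of the p21-activated family, had 9 and 9 reads, and CNIH1, a cargo receptor of the endoplasmic reticulum, 14 and 7. ALDH1A2, which makes retinoic acid, had 11 and 9 reads, again at places that did not overlap. SLC7A1, a transporter of arginine and lysine, had 9 and 10 reads, AMIGO3, an adhesion protein, 11 and 13, and DHX37, a helicase of ribosome assembly, 10 and 7. For ZNF223, CNIH1, RASA4B and FNDC11 no start is listed, and either gene end was used. ZNF223, a zinc finger protein, had 6 and 8 reads, RAD51AP2 9 and 5, TRIM67 7 and 7, PGBD5 8 and 8, and SUSD4, a complement inhibitor, 9 and 8. RASA4B had 14 and 13 reads, but it has near-identical copies on chromosome 7, so its peak is uncertain. FNDC11 (10 and 8 reads) and RBMX2, a splicing factor gene on X (6 and 7 reads), each had a peak in 1 WT library. Among the leading 20 shSTUB1-only genes, replicate 1 had the higher read count in 12 and replicate 2 in 5.

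**Figure D4:**
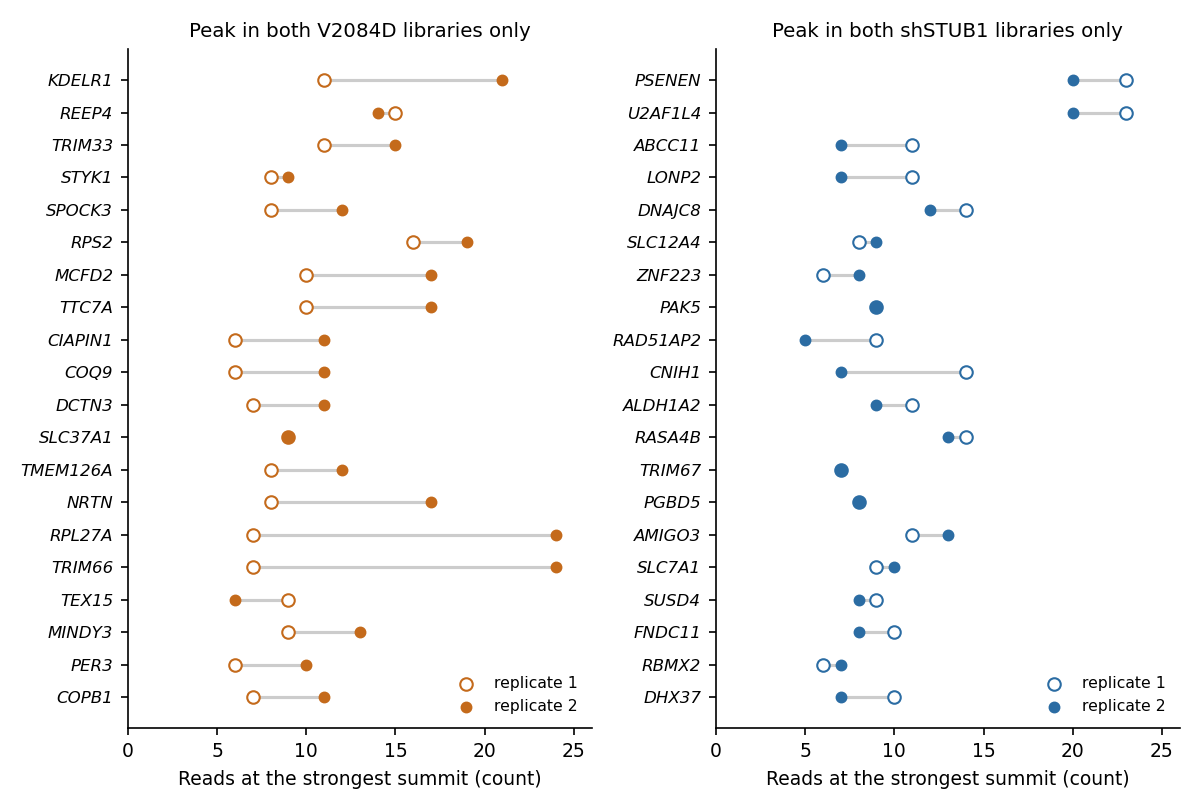
Reads at the strongest summit within 1000 bp of a listed start, or of either gene end for REEP4, STYK1, RPS2, TEX15, ZNF223, CNIH1, RASA4B and FNDC11 (horizontal axis, count), of the 20 leading V2084D-only genes (left) and the 20 leading shSTUB1-only genes (right). Open circles are replicate 1 and filled circles replicate 2 of the group with the peaks, and the other group had no peak. The strongest is RPL27A and TRIM66 with 24 reads in V2084D replicate 2 and 7 in replicate 1, and replicate 2 is the higher in 17 of the 20 V2084D-only genes.

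The genes of the machinery around STUB1 were seldom called. Of 19 HSP70 and HSP90 chaperone genes, 17 had a start peak in at least 1 of the 4 libraries and 10 in all 4, and none was called in either direction. HSPA5, HSPA9, HSPH1 and HSP90AA1 had a peak in all 4 libraries. HSPA8, the constitutive HSP70, HSP90AB1 and HSP90B1 had a peak in all but V2084D replicate 1, the shortest list. Of 33 co-chaperone genes with a peak, DNAJC8 was called, as shSTUB1-only. None of 30 E2 enzyme and ubiquitin genes with a peak, of 33 proteasome genes, of 10 heat shock response genes and of 22 genes of the unfolded protein response was called in either direction. With 1.16% and 0.604% of all genes called, 0 or 1 call among lists of this size cannot be set apart from the background.

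Of 27 SWI/SNF subunit genes, 20 had a start peak in at least 1 of the 4 libraries and 7 in all 4. None of the 20 was called, which at 1.16% and 0.604% of all genes cannot be set apart from the background. ACTL6A, SS18, BICRA, BICRAL, DPF2, BCL7B and SMARCD2 had a peak in all 4. SMARCA4, which encodes the ATPase BRG1, had a peak in V2084D replicate 2 only, and ARID1B, the paralog of ARID1A, had none. SMARCC1 and SMARCB1 had a peak in V2084D replicate 2 and both shSTUB1 libraries. Of 30 other chromatin remodellers and modifiers with a peak, none was called.

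The other gene lists held 10 calls, 2 of them also among the leading genes. With 1.16% and 0.604% of all genes called, 0 to 3 calls a list cannot be set apart from the background, and the genes are given as a description. V2084D-only were ATG16L1, a gene of autophagy, with 6 and 8 reads and a peak in both WT libraries, and JDP2, a repressor of AP-1, with 9 and 14 reads and a peak in 1 WT library. In the TGF-beta list, SMAD2, the transducer of the signal, had 8 and 13 reads and a peak in both WT libraries, and ID2, a target of the pathway, had 11 and 15 reads and none in WT. TWIST1, a driver of the mesenchymal state, had 6 and 10 reads at places that did not overlap. For TWIST1, and for RPS2 and RPL23A below, no start is listed and either gene end was used. RPS2 was V2084D-only and RPL11 (8 and 6 reads) and RPL23A (14 and 9 reads, both WT libraries) were shSTUB1-only among 35 cytosolic ribosomal protein genes with a peak. MRPL20, of the mitochondrial ribosome, was shSTUB1-only with 6 and 5 reads, and ALDH1A2 was the call of the hepatocyte metabolism list. No gene was called among hepatocyte transcription factors, hepatocyte secreted proteins, YAP and TEAD targets, Wnt, PI3K and mTOR, lipid synthesis, NRF2 targets, cell cycle, DNA damage or interferon lists, nor among the marker lists of other cell types.

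Of the regions away from gene starts, a V2084D-only peak inside ZNF511-PRAP1 (chr10:133318514-133319008) led the V2084D-only class. It had 12 reads and a fold of 7.93 in V2084D replicate 1 and 15 reads and a fold of 7.84 in replicate 2. Its nearest start was that of TUBGCP2, 6177 bp away, and 1 WT library had a peak there. A region between genes 1823 bp from TYW1B (chr7:72830023-72830255) had 12 and 24 reads, and one on chromosome 16 (chr16:29199732-29200639) had 7 and 14 reads. A region inside FGD3, an activator of the GTPase CDC42, had 8 and 8 reads, one inside SSC4D 9 and 18, and one 6843 bp from DNAH14 8 and 7. The others of the leading 10 lay near EIF1AD (6 and 11 reads), ZNF184 (10 and 9), CHAC2 (6 and 11) and CA4 (9 and 14).

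Away from gene starts, the first-ranked shSTUB1-only region lay inside GRK5, a kinase that switches off G protein-coupled receptors, 108022 bp from its start (chr10:119315593-119315845). It had 20 reads and a fold of 9.21 in shSTUB1 replicate 1 and 11 reads and a fold of 6.59 in replicate 2, with no peak in a V2084D or WT library. The next lay between genes 49435 bp from TSPAN2 (chr1:115138938-115139294), with 9 reads and a fold of 6.94 and 10 reads and a fold of 7.97, again with no WT peak. A region inside GPHN, the gene of the synaptic scaffold gephyrin, had 9 and 13 reads, one inside DCBLD1 13 and 11, and one inside ROR1, a receptor of the Wnt family, 12 and 15. Regions inside GRID2IP (9 and 7 reads) and 4742 bp from KRT80, a keratin gene (8 and 8 reads), had no WT peak. One 17032 bp from TLK1 (10 and 9 reads) had a peak in 1 WT library, and one far from NPVF (9 and 10 reads) and one inside ARHGAP24 (9 and 7 reads) in both. Over all regions of the class away from starts, the median distance to the nearest start was 35098 bp for V2084D-only and 30592.5 bp for shSTUB1-only regions, close to the 34088 bp of all regions away from starts.

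The number of calls made again depended on how lists of unequal length were handled. With reads scaled to the lowest depth, 281 of the 350 V2084D-only and 325 of the 378 shSTUB1-only regions were called again. With lists of equal length 42 and 19 were, and at a −log10 q (the caller's adjusted p) of at least 5, 17 and 15. Of the V2084D-only regions, 4 were called under all 3 settings, where equal length means 9036 summits in each list. They were those of ZNF511-PRAP1, KDELR1, the shared start of BCL2L12 and IRF3 (chr19:49665509-49666161, 13 and 22 reads) and the start of ANKRD50 (chr4:124712958-124713202, 11 and 19 reads). Of the shSTUB1-only regions, 10 were. They were those inside GRK5, DCBLD1, GRID2IP and ARHGAP24, those near TSPAN2, NPVF, TLK1, KRT80 and MRPS18A (10 and 9 reads) and the start of CPEB2 (chr4:15001377-15001894, 21 and 15 reads), a regulator of messenger RNA translation. BCL2L12, IRF3, ANKRD50, MRPS18A and CPEB2 were named for this count after their values were seen. A called region at a start does not make its gene a called gene. BCL2L12, IRF3 and ANKRD50 were not among the 136 V2084D-only genes, nor CPEB2 among the 71 shSTUB1-only genes. At the start of BCL2L12 and IRF3, shSTUB1 replicate 1 had a peak with 12 reads outside the region. Of these 10 regions, 9 lay away from gene starts, beside 264 of all 378 shSTUB1-only regions. At gene starts lay 49.7% of the shSTUB1-only regions called at the stricter −log10 q and 58.1% of those called with equal lengths. The position of these 10 thus does not describe those wider calls.

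**Figure D5:**
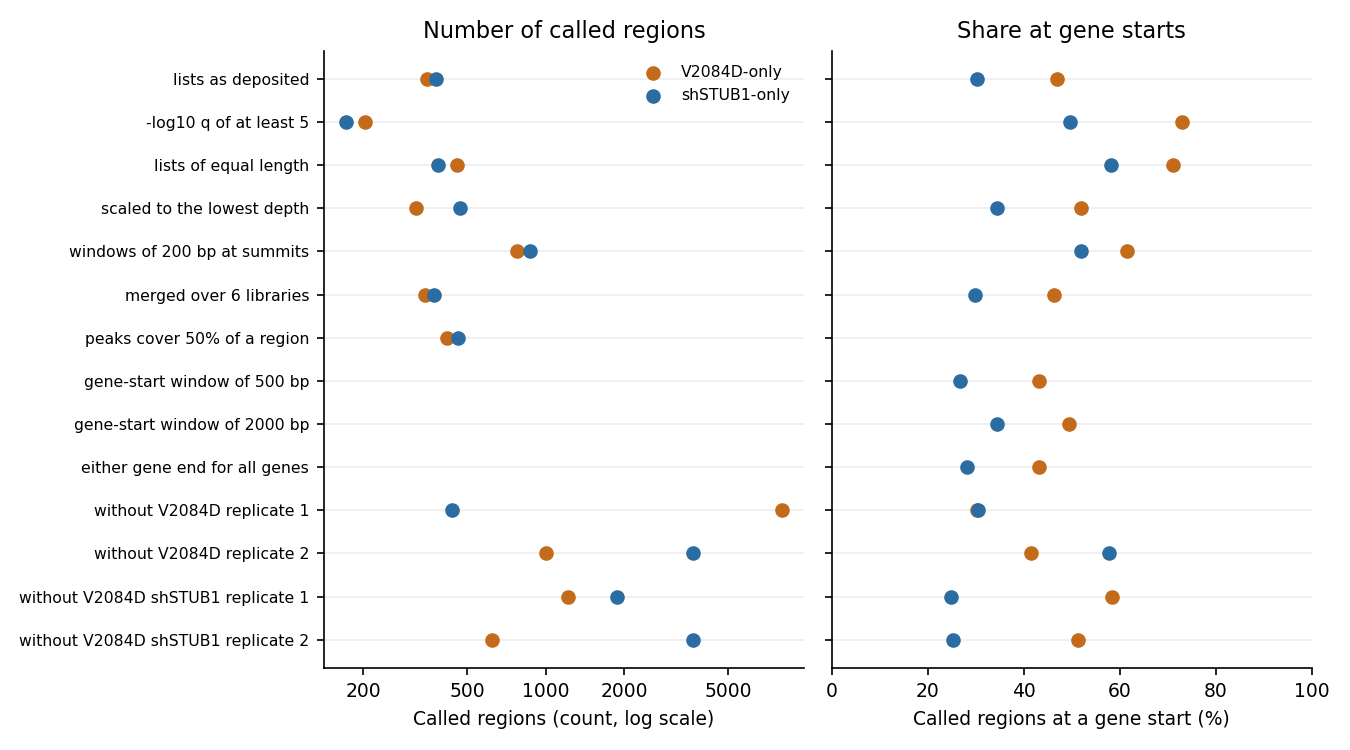
Number of called regions (left, count on a log scale) and share of called regions at a gene start (right, %) for V2084D-only (orange) and shSTUB1-only (blue) regions under each way of processing. The counts stay between 171 and 867 until a library is left out, when they reach 8045, and the order of the gene-start shares turns round without V2084D replicate 2.

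With all lists cut to the same number of summits the calls were largely other genes. The cut lists, 9036 summits each, gave 343 V2084D-only genes (3.86% of 8893 genes with a peak) and 242 shSTUB1-only genes (2.72%). Of the 136 and 71 genes called from the full lists, 19 and 5 were among them. Of the 343, 187 had a start peak in both shSTUB1 libraries of the full lists, 137 in 1 and 19 in none, and of the 242, 237 had one in 1 V2084D library and 5 in none. The full list of V2084D replicate 1 held 9036 summits, so the cut left it whole. None of the 242 could therefore have a start peak in both V2084D libraries, and the 2 directions cannot be compared in this respect. The genes named next were chosen after their values were seen. The cut kept the summits of highest −log10 q in each list. Stronger peaks in the group of the call thus largely follow from the call, and the values are a description only. ZNF70, a zinc finger gene, had 17 and 26 reads in V2084D replicates 1 and 2 and 10 and 8 reads in shSTUB1 replicates 1 and 2, with folds of 8.91, 10, 4.91 and 4.25. SP3, a factor that binds GC boxes, had folds of 8.33 and 7.09 in V2084D and 5.46 and 4.67 in shSTUB1. In the other direction UBE2M, the E2 enzyme of neddylation, had folds of 6.75 and 7.23 in shSTUB1 and 4.79 in V2084D replicate 2, with no peak in replicate 1. AGA, a lysosomal enzyme, had folds of 9.41 and 7.73 in shSTUB1 and 6.20 in V2084D replicate 2. RNF139, an E3 ligase of the endoplasmic reticulum, had 8.10 and 7.35 in shSTUB1 and 5.22 in V2084D replicate 2. These 3 genes lacked a peak in V2084D replicate 1, the shortest list, as every shSTUB1-only gene of the cut lists must.

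The cut lists also called members of the lists around STUB1, and their reads are again not independent of the call. BAG5, a co-chaperone of HSP70, had 10 and 20 reads in V2084D and 11 and 9 in shSTUB1, and HSF2, a heat shock factor, 7 and 16 in V2084D and 9 in shSTUB1 replicate 1. PSMD6, of the proteasome lid, had 10 and 12 reads in V2084D and 6 and 6 in shSTUB1. These 3 and UBE2E2 were V2084D-only with the cut lists. In the other direction stood DNAJC8, SMARCC1 (15 and 9 reads in shSTUB1, 10 in V2084D replicate 2) and the autophagy genes ATG14, BECN1 and LAMP2. For BAG5, HSF2 and SMARCC1 the reads of the groups overlapped. With 3.86% and 2.72% of all genes called, nothing particular to a list can be read from counts of 0 to 3.

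The promoters of called genes were GC-rich like those of genes with a peak in all 4 libraries. A promoter was listed for 112 of the 136 V2084D-only and 57 of the 71 shSTUB1-only genes. The median GC content was 65.8% and 69.3%, beside 65.0% for genes with a peak in all 4 libraries, 55.7% for genes with none and 62.7% for all 15812 promoters. The median ratio of observed to expected CpG was 0.842 and 0.887, beside 0.855 and 0.338 for genes with a peak in all 4 and none.

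Motif letters were searched on both strands of these promoters. The AP-1 letters were TGANTCA and those of the cyclic AMP response element TGACGTCA. For ETS factors CCGGAAG was used, for NFY the box CCAAT, for YY1 the letters AAGATGGC and for SP1 the GC box GGGCGG. The E-box was CACGTG, the TEAD letters were GGAATG, and HNF4 was read as CAAAGTCCA. FOXA factors were read as TGTTTAC and C/EBP as TTGCNNCAA. The heat shock element was GAANNTTC, the amino acid response element TGATGCAAT and the antioxidant response element TGACNNNGC. The core of the CTCF site was CCACNAGG and the TATA box TATAAA. An AP-1 match can lie within an antioxidant response match, and a TEAD match can overlap a heat shock element. GGGCGG was found in 73.2% of the V2084D-only promoters and in 71.9% of the shSTUB1-only promoters, beside 58.3% of all promoters and 71.4% of those with a peak in all 4 libraries. CCAAT was found in 27.7% (exact 95% interval 19.6% to 36.9%) and 38.6% (26% to 52.4%), beside 36.4% of all. Among promoters with a peak in all 4 libraries the CCAAT share was 42.2%. That share lies above the V2084D-only interval and inside the shSTUB1-only interval, and the difference was not tested. CCGGAAG was found in 17.9% and 12.3%, beside 14.1% of all and 23.4% of those with a peak in all 4 libraries. The heat shock element letters were found in 3.57% and 5.26%, beside 5.57% of all. For the NFY, ETS and heat shock letters the intervals of both classes hold the share of all promoters.

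On the chromosomes the calls were spread. The share of a chromosome's regions called V2084D-only ran from 0.521% on chromosome 21 to 1.72% on chromosome 11. The shSTUB1-only share ran from 0.518% on chromosome 18 to 2.01% on chromosome 6. Within 100 kb of another region of the same class lay 22 V2084D-only and 24 shSTUB1-only regions.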

How the data were processed

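The data are 6 ATAC-seq libraries, grouped by title into 3 groups of 2. Per the submitters' processing notes, reads mapped to hg38 were handled with Bowtie2, Trimmomatic, Picard, SAMtools, deepTools, bedtools and MACS2. Their versions and settings, and whether reads were shifted to where Tn5 cuts, were not given in the sources used here. Each library has its own deposited MACS2 peak list, so the authors called peaks per sample. Whether they also called peaks on pooled samples cannot be read from these lists. The authors' deposited score is 10 times the −log10 q with decimals dropped. For each summit the lists also hold the authors' fold, a ratio of reads to local background, with its −log10 p and −log10 q. The lists reached down to a −log10 q of 1.30 to 1.31.

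Chromosomes 1 to 22 and X were kept (2.07% to 2.60% of summits lay elsewhere), which left 6743 to 22978 peaks per library. Reads at a summit were recovered by taking the p-value as Poisson and the fold as (reads + 1) over (background + 1), which gave whole numbers for 100% of summits within 0.001 in −log10 p. The lowest background gave the relative depth. Where a peak is missing, none was called at that depth, which is not the same as closed DNA.

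Gene starts came from RefSeq (GRCh38.p14) for 15812 of 19974 protein-coding genes, and both gene ends served for the other 4162. The start window was 1000 bp. All 719 symbols of the 31 gene lists matched. Exons and introns were not determined.

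Calls followed presence of peaks and had no test, as 2 libraries a group cannot give a two-sided exact permutation p under 0.33. Genes and regions were ranked by the mean within-list percentile of −log10 q, and the first 20 genes and first 10 regions away from starts of each direction, up to 4 called genes of each list, ARID1A and STUB1 could be named. The comparison, its rule and the lists were chosen with earlier results of these data known. Calls and read recovery were tested on simulated lists. Intervals are exact binomial (Clopper-Pearson) and cover counting error only. Python 3.11.15, numpy 2.4.6 and pandas 2.3.3 were used. A few genes of the lists are not reported here.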

Additional observations from a re-analysis of the deposited data

How the results depend on the processing

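The cause of the changes below was not tested, except that leaving out a library lets a single list stand for its group. At a −log10 q of at least 5 there were 203 V2084D-only and 171 shSTUB1-only regions, 72.9% and 49.7% of them at gene starts. Lists of equal length gave 343 and 242 genes, with gene-start shares of 71.1% and 58.1%. Reads scaled to the lowest depth gave 138 V2084D-only and 131 shSTUB1-only genes, and 319 and 469 regions. Windows of 200 bp at summits gave 774 and 867 regions, with gene-start shares of 61.6% and 52.0%. Leaving out each library in turn gave 622 to 8045 V2084D-only and 436 to 3671 shSTUB1-only regions, 185 to 1261 and 87 to 2205 genes, and gene-start shares of 30.2% to 58.5% and 24.8% to 57.8%. Counts stayed within 1.5 times of the reported ones, and shares within their intervals, when peaks were merged over 6 libraries, for gene-start windows of 500 and 2000 bp and, chosen after seeing the data, with either gene end for all genes. A minimum coverage of 50% of a region gave 420 and 461 regions. Of the called genes, 7 V2084D-only and 2 shSTUB1-only genes were called again at the stricter −log10 q, 19 and 5 with equal lengths and 115 and 62 after depth scaling. The gene list counts with equal lengths were also chosen after seeing the data. A replicate block, a peak in the V2084D and not in the shSTUB1 library of each number, is the same rule as the calls and gave the same 350 and 378 regions and 136 and 71 genes. The labels do not say that a shared number marks a shared culture or day. Summits with few reads limit the depth at which a missing peak can be read.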
